A study of Mus musculus with 12 samples.

Results

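The comparison described here asks whether lymphodepletion left a different mark on the 2 kinds of myeloid-derived suppressor cell (MDSC) of one tumour-bearing animal model. A cell sorter had separated the monocytic type (M-MDSC) from the polymorphonuclear, neutrophil-like type (PMN-MDSC) in spleens of C57BL/6 mice. All the mice carried B16 tumours, a transplanted mouse melanoma. The untreated groups (Ctrl) received no drug, and the lymphodepleted groups (LD) received cyclophosphamide, an alkylating agent, with fludarabine, a purine analogue. Spleens of the LD mice were taken 7 days after treatment. The labels name no surface gate, no sex and no age. All 12 libraries entered the comparison, 3 for each population and treatment (Ctrl or LD). The quantity tested is the difference of LD changes, which is the log2 LD change in M-MDSC minus the log2 LD change in PMN-MDSC. A positive difference is called toward M-MDSC and a negative one toward PMN-MDSC. It was tested for 11122 of the 23479 genes in the table, those with a mean normalized count of at least 10.

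MDSCs are immature myeloid cells that accumulate in cancer and inflammation and restrain T cells. M-MDSCs resemble inflammatory monocytes, and PMN-MDSCs resemble neutrophils and their precursors; the surface protein Ly6C is commonly used to tell them apart. Lymphodepleting drugs are given before adoptive T cell therapy to clear host lymphocytes, and as the marrow recovers it sends out new myeloid cells. Neutrophil precursors make granule proteins in waves, beginning with primary granules and followed by secondary and tertiary granules, before they mature.

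The libraries held 8906045 to 16242926 reads recovered from the normalized counts. LD replicate 1 stood apart in both populations in Mki67, a gene of cycling cells, with normalized counts of 8133.0 in M-MDSC and 6242.0 in PMN-MDSC against 1260.5 to 3200.8 in the other LD libraries. Summed normalized counts of 24 neutrophil markers ran from 14059.6 to 16762.4 in M-MDSC Ctrl and from 13813.9 to 15977.3 in M-MDSC LD, against 336958.8 to 428932.9 in PMN-MDSC. Globin genes of red cells (Hba-a1, Hba-a2, Hbb-bt, Hbb-bs) were listed at 0 in every library. Nothing in the labels says that the 3 libraries of a group came from separate mice, so p-values measure the spread between these libraries, which may be technical. Levels below are normalized counts as mean ± SD over 3 libraries; changes are log2 ± SE from limma. Each adjusted p is two-sided, with Benjamini-Hochberg adjustment across the 11122 genes, and 0.05 is the threshold.

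The LD response differed between the populations for 250 genes (2.25% of those tested), 131 of them toward M-MDSC (1.18%) and 119 toward PMN-MDSC (1.07%). By edgeR, 290 genes passed and 66.9% of them were toward M-MDSC, against 52.4% of the 250. For 124 of the 250 the difference was at least 2-fold. The called differences ran from -4.51 (Etl4) to 4.97 (Adamdec1), genes named only for being the ends of that range. Over all genes tested the median difference was 0.04, and its median SE was 0.3. With each library left out in turn, 115 to 824 genes passed, the fewest without PMN-MDSC Ctrl replicate 2 and the most without PMN-MDSC LD replicate 1, which enters every estimate of the shared spread. In all, 88 of the 250 passed whichever library was left out. With same-numbered M-MDSC and PMN-MDSC libraries of a treatment paired as a presumed animal, 14 differences passed, and 5 of these were among the 250. The labels do not say whether that pairing is right.

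PMN-MDSCs had many more called LD changes than M-MDSCs. In PMN-MDSC 798 genes rose (7.17%) and 947 fell (8.51%), and in M-MDSC 283 rose (2.54%) and 52 fell (0.468%). The 250 genes were sorted by which of these changes were themselves called. In 10 genes both changes were called and pointed in opposite directions. In 45 the change was called in M-MDSC alone (41 rose, 4 fell), and in 186 in PMN-MDSC alone (112 rose, 74 fell). In 4 genes both populations rose by different amounts, and in 5 neither change was called by itself. Each LD change had its own adjustment over all genes, and a call needed a larger change relative to its SE in M-MDSC. Jun in PMN-MDSC was called at -0.41 ± 0.12 (limma adjusted p = 0.0305). Srebf2 in M-MDSC was not called at 0.47 ± 0.12 (limma adjusted p = 0.0552). The sizes of the classes depend in part on these unequal bars.

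**Figure D1:**
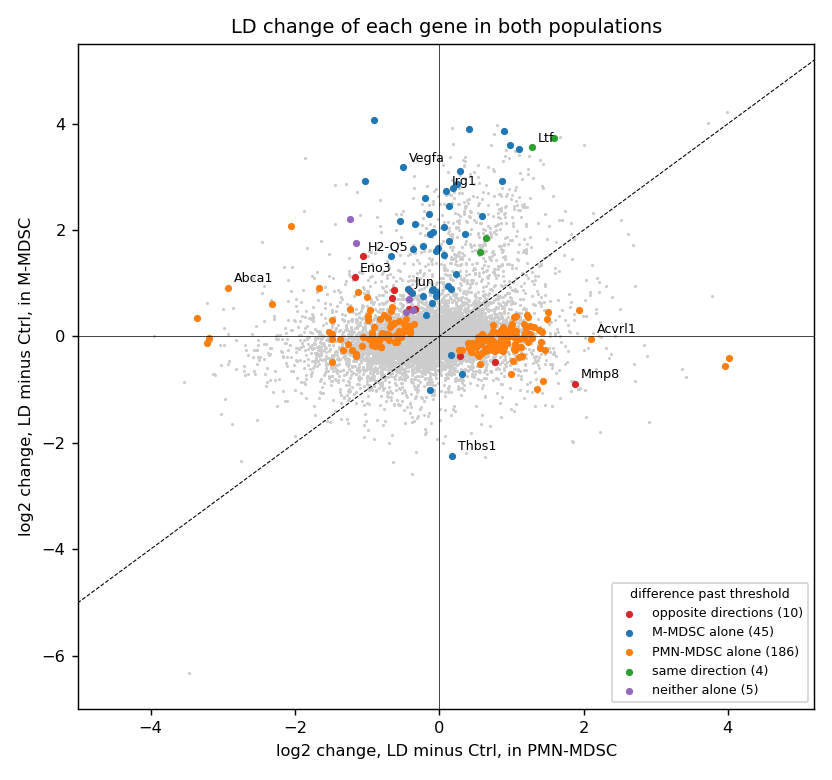
The log2 LD change of each tested gene in PMN-MDSC (horizontal) is plotted against that in M-MDSC (vertical), with the dashed line marking equal changes. Coloured points are the 250 genes whose difference passed. For the 186 called in PMN-MDSC alone the M-MDSC change ran from -0.98 to 2.07. For the 45 called in M-MDSC alone the PMN-MDSC change ran from -1.03 to 1.1. A gene called in one population alone can thus lie off that axis, since its other change was only not called.

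The genes that moved in opposite directions were led by Mmp8, neutrophil collagenase, an enzyme of neutrophil granules that cleaves fibrillar collagen. Its gene lies on chromosome 9 from 7558429 to 7568486 (RefSeq, GRCm38.p6, the assembly behind mm10). In M-MDSC its normalized counts were 817.1, 1208.5 and 973.3 in Ctrl and 549.8, 576.5 and 470.9 in LD. In PMN-MDSC they were 8291.4, 7942.9 and 8065.7 in Ctrl and 21808.6, 32009.3 and 38246.2 in LD. Every LD library was below every Ctrl library in M-MDSC and above every Ctrl library in PMN-MDSC. The LD change was -0.89 ± 0.17 in M-MDSC and 1.88 ± 0.17 in PMN-MDSC, a difference of -2.78 ± 0.25 (95% interval -3.3 to -2.25) with the smallest adjusted p of all genes (limma adjusted p = 0.000168). M-MDSC held 12.3% of the PMN-MDSC level in Ctrl and 1.73% in LD. The other genes that fell in M-MDSC and rose in PMN-MDSC moved less. Nucb2, a calcium-binding protein of the Golgi, fell from 533.7 ± 13.4 to 382.1 ± 19.0 in M-MDSC and rose from 470.8 ± 6.7 to 807.0 ± 121.7 in PMN-MDSC (difference -1.25 ± 0.17, limma adjusted p = 0.00225). Ap2a2, a subunit of the AP-2 clathrin adaptor, fell by 0.36 in M-MDSC and rose by 0.29 in PMN-MDSC (difference -0.65 ± 0.12, limma adjusted p = 0.0136).

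The other 7 opposite genes rose in M-MDSC and fell in PMN-MDSC. Jun, a subunit of the AP-1 transcription factor (chromosome 4, 95049036 to 95052222), read 226.3, 301.4 and 262.5 in M-MDSC Ctrl and 487.5, 418.6 and 514.3 in M-MDSC LD. In PMN-MDSC it read 3226.6, 3415.5 and 3165.3 in Ctrl and 2728.1, 2353.4 and 2322.2 in LD. The groups did not overlap in either population, and the difference was 1.26 ± 0.17 (limma adjusted p = 0.00225). Itgax, the integrin chain CD11c carried by dendritic cells and some monocytes (chromosome 7, 128129526 to 128150657), read 598.6, 504.3 and 786.5 in M-MDSC Ctrl and 1264.8, 1104.7 and 1070.9 in M-MDSC LD. Its PMN-MDSC libraries read 5003.6, 5443.2 and 4858.9 in Ctrl and 2613.1, 3847.8 and 3540.8 in LD. Both integrin shifts were free of overlap between Ctrl and LD, with a difference of 1.52 ± 0.22 (limma adjusted p = 0.00561).

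Eno3, the muscle isoform of the glycolytic enzyme enolase (chromosome 11, 70653125 to 70662513), was the only opposite gene apart from Ap2a2 and Nucb2 with a higher Ctrl level in M-MDSC. It rose 2.17-fold there, from 342.8 ± 49.0 to 761.0 ± 219.9, and fell 2.26-fold in PMN-MDSC, from 151.2 ± 21.6 to 66.7 ± 12 (difference 2.3 ± 0.31, limma adjusted p = 0.00225). Card10, a scaffold of NF-kappaB signalling, rose from 180.7 ± 7.4 to 306.0 ± 80.8 in M-MDSC and fell from 2975.0 ± 319.5 to 1892.9 ± 143.5 in PMN-MDSC (difference 1.37 ± 0.22, limma adjusted p = 0.00724). Cpd, a carboxypeptidase, went from 1176.6 ± 92.5 to 1672.4 ± 146.5 in M-MDSC and from 15688.7 ± 682.1 to 12470.2 ± 193.8 in PMN-MDSC (difference 0.84 ± 0.12, limma adjusted p = 0.00561). H2-Q5, a non-classical MHC class I gene, showed a difference of 2.57 ± 0.42 (limma adjusted p = 0.00826), but it has close copies in the same gene cluster and its reads are uncertain. The remaining gene, AF251705, had a difference of 0.94 ± 0.16 (limma adjusted p = 0.0089).

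For all 10 opposite genes the difference passed with any 1 library left out, but the separate changes were less secure. Each of the 10 lost the call of one or both of its LD changes in at least 1 left-out fit. Mmp8 in M-MDSC lost it in 2 (the limma adjusted p reached 0.0547 when M-MDSC LD replicate 3 was left out), and Jun in PMN-MDSC in 5 (0.103 without PMN-MDSC Ctrl replicate 2). Nucb2 in M-MDSC lost it in 9, Ap2a2 in 6 for each population, H2-Q5 in PMN-MDSC in 4, Cpd in PMN-MDSC in 3, and Eno3 in M-MDSC and Itgax in PMN-MDSC in 1 each. Card10 lost it in 3 for M-MDSC and 1 for PMN-MDSC, and AF251705 in 3 and 4. The number of genes in this class ran from 4 to 18 over the left-out fits.

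**Figure D2:**
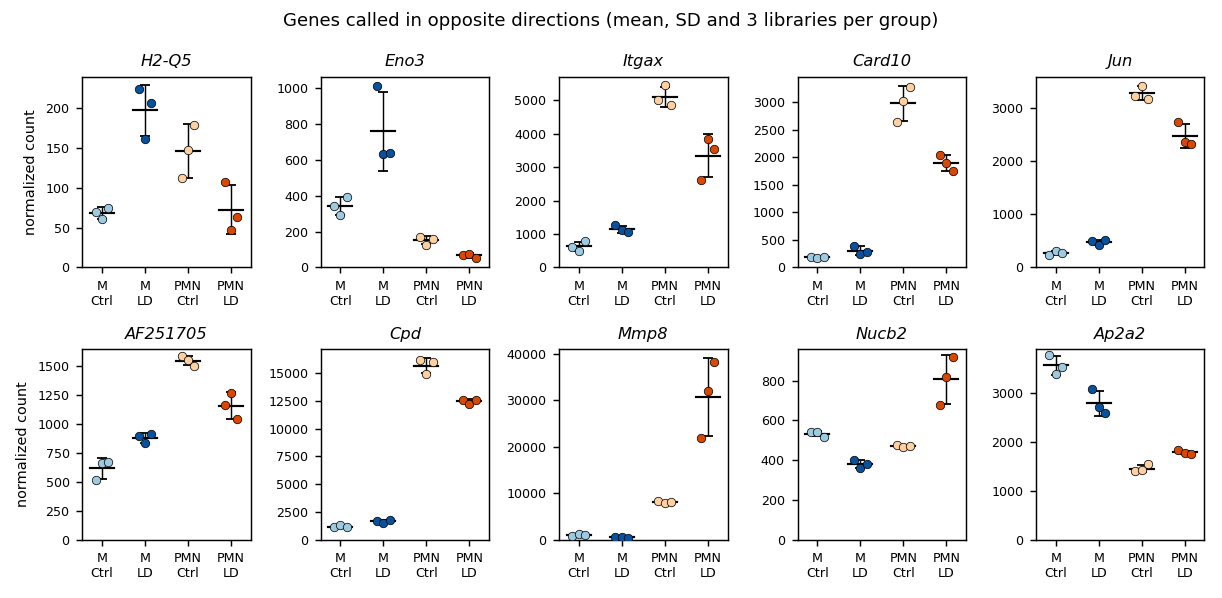
Normalized counts of the 10 genes called in opposite directions are shown by group, with 3 libraries as points, the mean as a bar and the SD as whiskers; vertical axes start at 0 and differ by gene. The first 7 genes rise from Ctrl to LD in M-MDSC (blue) and fall in PMN-MDSC (orange), and Mmp8, Nucb2 and Ap2a2 do the reverse.

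Of the 112 genes that rose in PMN-MDSC alone, several encode proteins known from monocytes and macrophages. Lyz2, lysozyme (chromosome 10, 117277541 to 117282272), read 28365.0, 24714.6 and 26913.7 in PMN-MDSC Ctrl and 68318.8, 75823.9 and 70959.0 in PMN-MDSC LD. In M-MDSC it read 53724.3, 81239.9 and 63303.1 in Ctrl and 62259.2, 76671.0 and 69476.2 in LD. The PMN-MDSC groups were thus far apart while the M-MDSC groups overlapped, and after LD the libraries of both populations overlapped. The difference was -1.34 ± 0.22 (limma adjusted p = 0.00826). Ly6c2, a gene of the Ly6C surface protein itself (chromosome 15, 75108161 to 75112066), rose 3.83-fold in PMN-MDSC, from 649.8, 395.5 and 523.6 to 1978.8, 1757.7 and 2187.6. In M-MDSC its libraries read 1332.0, 1801.8 and 1544.4 in Ctrl and 2427.5, 2166.1 and 1994.0 in LD, which did not overlap but whose change of 0.5 ± 0.16 was not called (limma adjusted p = 0.123). The Ly6c2 difference was -1.44 ± 0.23 (limma adjusted p = 0.00724), and M-MDSC held 298% of the PMN-MDSC level in Ctrl and 111% in LD.

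Other rises of this kind included Vim, the filament protein vimentin, from 14163.9 ± 2223.8 to 25310.1 ± 1999.3 in PMN-MDSC (difference -1.11 ± 0.19, limma adjusted p = 0.00872). Lgals3, the lectin galectin-3, rose from 1421.8 ± 223.2 to 2910.6 ± 296.8, and read 3274.9 ± 342.9 and 3306.4 ± 378.8 in M-MDSC (difference -1.03 ± 0.18, limma adjusted p = 0.00956). Capg, an actin-capping protein, rose 2.65-fold from 657.6 ± 32.1 to 1765.7 ± 358.8 (difference -1.61 ± 0.19, limma adjusted p = 0.00166). These 3 genes were higher in M-MDSC than in PMN-MDSC before treatment, and for Vim and Capg that order was the other way round after it. Nrp1, a co-receptor for VEGF and semaphorins, rose 2.6-fold (161.1 ± 31.6 to 419.5 ± 81.1) but still lay below M-MDSC, at 1874.1 ± 263.4 in LD. Anxa5, annexin A5, rose 2.06-fold to 498.5 ± 59.5 against 1997.0 ± 173.3 in M-MDSC LD.

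Monocyte markers as a list did not follow Lyz2 and Ly6c2. Of 26 tested, 3 rose and 3 fell in PMN-MDSC, against 7.17% and 8.51% of all genes. The median LD change of the 26 there was -0.35, against -0.05 over all genes. Their summed level in PMN-MDSC went from between 81255.2 and 92358.3 in Ctrl to between 115681.2 and 127546.0 in LD, but without Lyz2 it went from between 54770.8 and 63993.2 to between 47362.4 and 51880.7. Ccr2, the chemokine receptor of classical monocytes, read 374.4 ± 128.9 in PMN-MDSC Ctrl and 301.9 ± 121.6 in PMN-MDSC LD, against 10988.9 ± 1051.6 in M-MDSC LD. Csf1r, the macrophage colony-stimulating factor receptor, fell in PMN-MDSC from 7997.7 ± 860.4 to 5673.1 ± 497.3 (difference 0.61 ± 0.14, limma adjusted p = 0.0433, lost in 10 of 12 left-out fits with up to 0.1). In sorted bulk cells, fewer cells of a type and less RNA per cell cannot be told apart.

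Rises in PMN-MDSC alone also included enzymes and signalling receptors. Acvrl1, the receptor ALK1 of the TGF-beta family (chromosome 15, 101128522 to 101145336), rose 4.31-fold in PMN-MDSC, from 576.4, 497.5 and 606.6 to 2026.1, 2254.9 and 3065.4. Its M-MDSC libraries read 381.3, 371.3 and 337.7 in Ctrl and 281.8, 405.9 and 384.2 in LD, and these overlapped. With a difference of -2.15 ± 0.23 (limma adjusted p = 0.000996), it had the smallest adjusted p after Mmp8 among the genes named here. Acvr1b, the activin receptor ALK4, rose from 548.7 ± 40.1 to 785.1 ± 29.7 in PMN-MDSC and read 589.9 ± 57.2 and 466.7 ± 30.1 in M-MDSC (difference -0.85 ± 0.15, limma adjusted p = 0.0113).

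Cybb, the catalytic subunit of the phagocyte NADPH oxidase, rose 2.3-fold in PMN-MDSC, from 7599.9 ± 790.0 to 17583.6 ± 2843.1, and read 19212.1 ± 2030.2 and 21418.3 ± 2406.9 in M-MDSC (difference -1.05 ± 0.19, limma adjusted p = 0.013). S100a6, a calcium-binding S100 protein, rose from 5798.8 ± 1354.1 to 12744.2 ± 2283.4 (difference -1.34 ± 0.25, limma adjusted p = 0.0132). Mgst1, a membrane glutathione transferase, rose 2.76-fold in PMN-MDSC (1038.0 ± 172.1 to 2915.0 ± 786.9), Aldh2, an aldehyde dehydrogenase, 1.94-fold (4639.2 ± 212.9 to 9077.8 ± 1360.8) and Prdx6, a peroxiredoxin, 1.6-fold (568.9 ± 36.3 to 912.8 ± 66.6). Their differences were -1.72, -0.97 and -0.88, with limma adjusted p of 0.00849, 0.00649 and 0.00849.

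Timp2, an inhibitor of matrix metalloproteinases, rose from 1789.8 ± 310.4 to 3594.5 ± 763.2 in PMN-MDSC, while its change in M-MDSC was -0.7 ± 0.19 (limma adjusted p = 0.0676) with no overlap between Ctrl and LD (difference -1.7 ± 0.27, limma adjusted p = 0.00821). Pdk3, a kinase that inhibits pyruvate dehydrogenase, Ifrd1, a transcriptional co-regulator, Plekhg1 and Sntb1, the scaffold beta-1-syntrophin, had differences of -1.5, -1.51, -1.49 and -2.33 (limma adjusted p = 0.00947, 0.00945, 0.00225 and 0.012). Less secure were Anxa1, annexin A1 (difference -0.77 ± 0.17, limma adjusted p = 0.0336, lost in 9 left-out fits with up to 0.0803), and Cobll1, whose difference of -4.42 ± 0.96 rested on low levels (7.4 ± 7.3 in PMN-MDSC Ctrl, 120.9 ± 66.7 in LD). Cobll1 was lost in 7 left-out fits (up to 0.0773) and moved to -5.10 without PMN-MDSC Ctrl replicate 2. G6pdx and Tkt, both enzymes of the pentose phosphate pathway, rose in PMN-MDSC by 0.74 ± 0.1 and 1.06 ± 0.11 and had differences of -0.63 and -0.68 (limma adjusted p = 0.0342 and 0.0378), lost in 9 and 10 left-out fits with up to 0.0947 and 0.0964.

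Over the 112 genes of this class the median LD change was 0.89 in PMN-MDSC and -0.1 in M-MDSC. The 95% interval of the M-MDSC change lay inside -1 to 1 for 107 of them, so that a 2-fold change there was outside the interval. At the median gene PMN-MDSC went from 830.7 to 1728.4 against 1093.2 in M-MDSC Ctrl, and 63 of the 112 were lower in PMN-MDSC than in M-MDSC before treatment and 34 after it. Of the 112, 50 passed whichever library was left out.

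**Figure D3:**
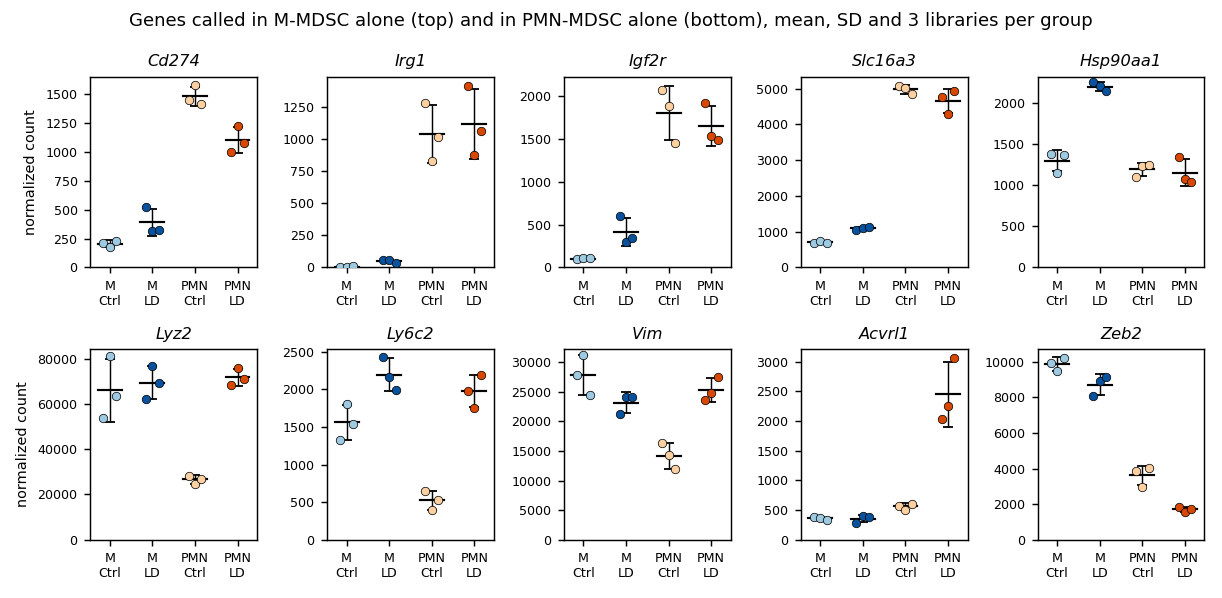
Normalized counts by group of 5 genes called in M-MDSC alone (top row) and 5 called in PMN-MDSC alone (bottom row), with 3 libraries as points, the mean as a bar and the SD as whiskers; axes start at 0. In the top row only the M-MDSC libraries (blue) separate without overlap in each gene but Cd274, and in the bottom row the PMN-MDSC libraries (orange) move by more, with Zeb2 falling.

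Genes of sterol balance were split between rises and falls of PMN-MDSC. Cells that sense low sterol activate SREBP2, which turns on cholesterol synthesis and uptake; cells that hold excess sterol form oxysterols, which activate the liver X receptor (LXR), and LXR turns on export through Abca1 and Abcg1. Of 22 synthesis and uptake genes tested, 10 rose and 0 fell in PMN-MDSC, against 7.17% and 8.51% of all genes. In M-MDSC limma called 0, with 8 upward at an unadjusted p under 0.05, and edgeR and DESeq2 called 3 and 4 rises. The median LD change was 0.8 in PMN-MDSC and 0.33 in M-MDSC. The difference passed for 3, all toward PMN-MDSC, and 19 did not pass. Of all genes 1.07% passed toward PMN-MDSC. Of 11 LXR targets tested, 7 fell in PMN-MDSC and 1 fell in M-MDSC, against 8.51% and 0.468% of all genes. In M-MDSC limma called 0 rises, with 4 upward at an unadjusted p under 0.05. There edgeR and DESeq2 called 1 and 3 rises, each beside 1 fall. The difference passed for 4, all toward M-MDSC, against 1.18% of all genes. The median LD changes of the LXR targets were -0.5 in PMN-MDSC and 0.24 in M-MDSC.

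Srebf2, which encodes SREBP2, rose 2.85-fold in PMN-MDSC, from 599.8, 591.5 and 573.0 to 1510.8, 1603.3 and 1959.0. Its M-MDSC libraries read 1585.0, 1455.4 and 1500.6 in Ctrl and 1765.4, 2502.3 and 2078.7 in LD, also without overlap, but that change was not called (0.47 ± 0.12, limma adjusted p = 0.0552). The Srebf2 difference was -1.04 ± 0.17 (limma adjusted p = 0.00849).

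Sc4mol, a methylsterol oxidase now named Msmo1, rose from 243.8 ± 9.7 to 588.4 ± 72.6 in PMN-MDSC and read 289.6 ± 34.6 and 331.6 ± 8.3 in M-MDSC (difference -1.06 ± 0.19, limma adjusted p = 0.012). Other enzymes of the same route rose in PMN-MDSC with no called difference. Sqle, squalene epoxidase, rose by 2.31 ± 0.43 from 7.6 ± 3.9 to 38.6 ± 7.0, against 0.95 ± 0.43 in M-MDSC (difference -1.36 ± 0.61, limma adjusted p = 0.256). Hmgcs1, HMG-CoA synthase, had a difference of -0.67 ± 0.19 (limma adjusted p = 0.082), Cyp51 of -0.73 ± 0.38 (0.342) and Nsdhl of -1.15 ± 0.49 (0.238). For Idi1 no change was called in either population (1.46 ± 0.63 in PMN-MDSC and 0.64 ± 0.63 in M-MDSC).

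Abca1, the exporter that loads cholesterol onto lipoproteins (chromosome 4, 53030789 to 53159988), fell 7.56-fold in PMN-MDSC, from 582.5, 815.6 and 612.9 to 182.6, 47.1 and 75.7. In M-MDSC it read 134.9, 92.8 and 133.0 in Ctrl and 224.6, 207.2 and 243.3 in LD. The groups did not overlap in either population and went opposite ways, but the M-MDSC change of 0.92 ± 0.35 was not called (limma adjusted p = 0.235). The difference of 3.83 ± 0.5 (limma adjusted p = 0.00225) put M-MDSC at 17.9% of the PMN-MDSC level in Ctrl and 221% in LD. Mylip, a ubiquitin ligase that limits cholesterol uptake, fell from 2418.3 ± 120.5 to 1517.6 ± 106.7 in PMN-MDSC and read 293.8 ± 45.0 and 346.2 ± 26.8 in M-MDSC (difference 0.92 ± 0.17, limma adjusted p = 0.012). Abcg1, another exporter, fell from 4006.2 ± 219.3 to 2829.2 ± 138.5 (difference 0.59 ± 0.12, limma adjusted p = 0.024, lost in 6 left-out fits with up to 0.0667). Apoe, the lipoprotein apolipoprotein E, fell from 2260.9 ± 313.3 to 1160.9 ± 386.4 in PMN-MDSC (difference 1.74 ± 0.38, limma adjusted p = 0.0304). In M-MDSC LD it read 3275.1 in replicate 1 and 7363.5 and 7351.2 in the others, and the call was lost in 9 left-out fits (up to 0.0774). Pltp, phospholipid transfer protein, and Srebf1 fell in PMN-MDSC, with differences of 2.06 ± 0.61 (limma adjusted p = 0.0914) and 0.7 ± 0.21 (0.095).

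Promoter sequence is shown for 3 sterol genes with a called difference, the synthesis genes whose window holds the SREBP motif and the LXR target whose window holds the LXR motif. Windows are the 250 bases before the start site, from RefSeq (GRCm38.p6), on the gene's strand, and 185 of the 250 genes with a called difference had one. In a gene set, a gene counted as holding a motif if any of its windows did. The share of all windows counted each of 32851 windows, from 27025 genes, so the shares are not like for like. The core of a sterol regulatory element, where SREBP binds, was searched as TCACNCCA on both strands. It was found in 3 of 16 cholesterol genes with a window (Hmgcs1, Sc4mol and Srebf2), in 1 of 9 LXR targets (Apoe, 11.1%) and in 3.67% of all 32851 windows. Capitals mark it in the windows of Sc4mol, chr8:64733579-64733828 (minus strand), and Srebf2, chr15:82147019-82147268 (plus strand).
Sc4mol: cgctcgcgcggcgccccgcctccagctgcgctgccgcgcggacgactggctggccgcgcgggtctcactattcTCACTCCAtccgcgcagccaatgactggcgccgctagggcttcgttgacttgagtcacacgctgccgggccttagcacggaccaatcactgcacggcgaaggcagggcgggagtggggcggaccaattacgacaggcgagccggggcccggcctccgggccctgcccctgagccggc
Srebf2: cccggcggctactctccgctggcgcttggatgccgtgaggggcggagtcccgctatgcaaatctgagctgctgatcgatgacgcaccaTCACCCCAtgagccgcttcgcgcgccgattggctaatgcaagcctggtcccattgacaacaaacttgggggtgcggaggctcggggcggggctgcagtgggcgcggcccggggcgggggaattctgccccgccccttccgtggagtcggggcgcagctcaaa
The matches lie at -177 to -170 (Sc4mol) and -162 to -155 (Srebf2) from the start site. The CCAAT box, bound by NF-Y beside SREBP in such promoters, was found for all 16 genes on either strand, against 33.8% of all windows. Neither is a measure of binding.

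LXR binds a direct repeat with a 4-base spacer, searched on both strands as 2 copies of GGTNA with any 5 bases between them. It was found in 2 of 9 LXR targets with a window (Abca1 and Srebf1) and in 0.621% of all windows. In Abca1, whose difference was the largest of the sterol genes, the window is chr4:53159896-53160145 (minus strand), and capitals mark the match, which reads on the opposite strand at -67 to -53.
Abca1: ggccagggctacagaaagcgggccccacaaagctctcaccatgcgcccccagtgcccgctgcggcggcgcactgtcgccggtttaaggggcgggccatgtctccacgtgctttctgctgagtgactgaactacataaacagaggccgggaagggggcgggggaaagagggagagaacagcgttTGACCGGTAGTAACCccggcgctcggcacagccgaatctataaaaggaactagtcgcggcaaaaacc
Of the genes with a window that rose in PMN-MDSC alone, 6 of 85 held the sterol core (7.06%) and 0 held the direct repeat. Of those that fell in PMN-MDSC alone 3 of 53 (5.66%) and 2 (3.77%) did. In all, 7 motifs were searched. A longer sterol core, TCACNCCAC, was found for 1 of the 16 cholesterol genes (6.25%) against 1.05% of all windows, and the variant TCACNCNAC for 2 (12.5%) against 2.26%. The AP-1 site TGANTCA was found for 8.24% of genes with a window that rose in PMN-MDSC alone and for 9.43% of those that fell, against 6.75% of all windows. The serum response element was in 0 windows of these sets. Letters alone show no use of a site.

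**Figure D4:**
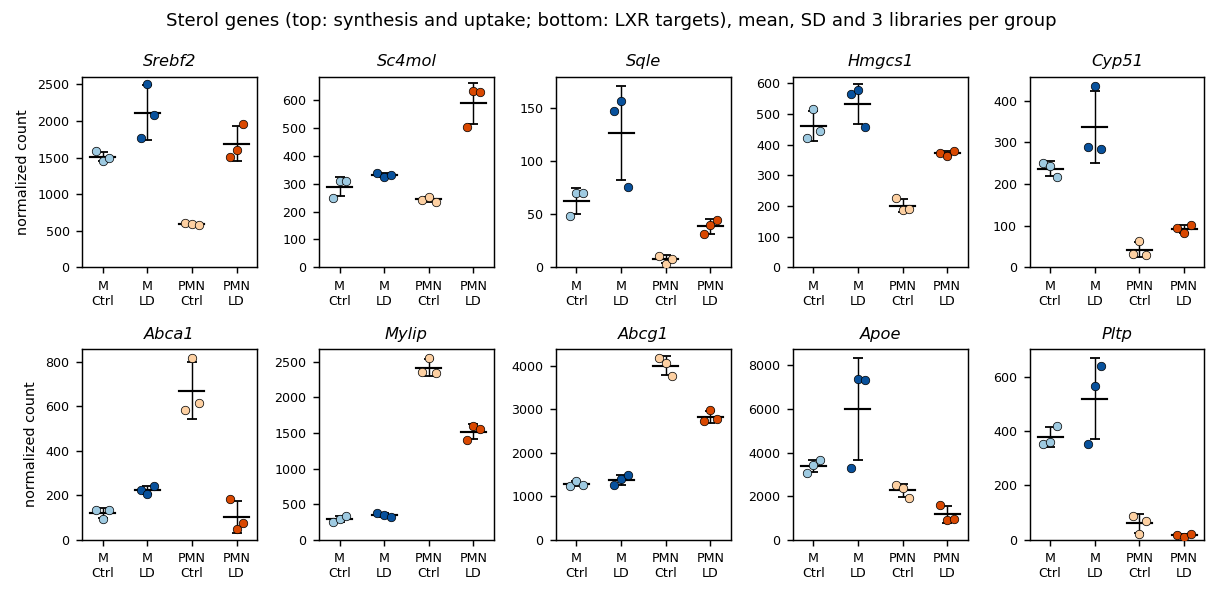
Normalized counts by group of 5 genes of cholesterol synthesis and uptake (top row) and 5 LXR targets (bottom row), with 3 libraries as points, the mean as a bar and the SD as whiskers; axes start at 0. From Ctrl to LD the PMN-MDSC libraries (orange) rise in the top row and fall in the bottom row, where M-MDSC means are level or higher.

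The 74 genes that fell in PMN-MDSC alone had a median LD change of -0.8 there and 0.08 in M-MDSC. The M-MDSC interval lay inside -1 to 1 for 64 of them, and 16 passed whichever library was left out. At the median gene PMN-MDSC went from 1578.3 to 920.3 against 642.9 in M-MDSC Ctrl. Zeb2, a transcriptional repressor needed in monocyte and dendritic cell development, read 3848.9, 2981.3 and 4006.5 in PMN-MDSC Ctrl and 1838.1, 1559.1 and 1719.2 in PMN-MDSC LD, a clear separation. Its M-MDSC libraries read 9957.2, 9479.7 and 10219.3 in Ctrl and 8057.0, 8930.9 and 9158.0 in LD, and the difference was 0.89 ± 0.16 (limma adjusted p = 0.00956). Zbtb16, the zinc finger protein PLZF, fell 2.89-fold (620.2 ± 55.8 to 214.6 ± 26.1; difference 1.62 ± 0.27, limma adjusted p = 0.00872). Mef2d, a transcription factor of the MEF2 family, fell from 1224.7 ± 14.1 to 805.6 ± 19.1 (difference 0.63 ± 0.12, limma adjusted p = 0.012).

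Receptors and feedback genes made up further falls. S1pr5, a sphingosine-1-phosphate receptor, fell from 61.1 ± 17.3 to 27.1 ± 4.7 in PMN-MDSC and read 366.9 ± 49.5 and 653.0 ± 99.3 in M-MDSC (difference 1.94 ± 0.34, limma adjusted p = 0.0104). Slc12a2, the sodium, potassium and chloride cotransporter NKCC1, went the same way (165.1 ± 79.7 to 48.7 ± 16.5, with 686.3 ± 77.8 and 1300.2 ± 234.6 in M-MDSC; difference 2.57 ± 0.45, limma adjusted p = 0.00947). For both genes the M-MDSC libraries also separated, upward, without a called change (limma adjusted p = 0.087 and 0.163). Prr5l, a binding partner of mTORC2, fell from 5850.8 ± 171.5 to 3023.1 ± 530.3 (difference 0.93 ± 0.17, limma adjusted p = 0.0125). Zc3h12a, the endoribonuclease regnase-1 that degrades cytokine mRNAs, fell from 1767.2 ± 94.4 to 993.7 ± 111.7 (difference 0.76 ± 0.16, limma adjusted p = 0.0245, lost in 5 left-out fits with up to 0.0641).

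Socs3, the feedback inhibitor of IL-6 and G-CSF signalling, fell 2.6-fold in PMN-MDSC, from 7425.3, 6634.2 and 7725.7 to 4195.6, 2368.1 and 2187.6. In M-MDSC it read 1206.2, 878.4 and 847.6 in Ctrl and 710.7, 923.8 and 1230.5 in LD, which overlapped. The difference of 1.33 ± 0.32 was close to the threshold (limma adjusted p = 0.0482) and was lost in 10 left-out fits (up to 0.121). Il10ra, the IL-10 receptor (0.81 ± 0.2, limma adjusted p = 0.0466, lost in 8 with up to 0.121), and Slc2a1, the glucose transporter GLUT1 (0.66 ± 0.16, 0.0466, lost in 10 with up to 0.106), were equally near it. Dusp1 and Dusp2, phosphatases that shut off MAP kinases, fell in PMN-MDSC by 0.77 and 0.99. Their differences were 1.18 and 1.3 (limma adjusted p = 0.0483 and 0.0304), lost in 10 and 8 left-out fits with up to 0.116 and 0.0816.

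In M-MDSC alone, 41 genes rose, with a median LD change of 1.93 against -0.04 in PMN-MDSC. Most of them were lower in M-MDSC than in PMN-MDSC to begin with: 37 of 41 in Ctrl, and 29 still in LD. At the median gene M-MDSC went from 39.7 to 233.6 against 796.7 in PMN-MDSC Ctrl. The summed neutrophil markers given above overlapped between M-MDSC Ctrl and LD, and the part of neutrophils in these rises was not tested. The 95% interval of the PMN-MDSC change lay inside -1 to 1 for 23 of the 41, and 11 passed whichever library was left out. Over the 45 genes called in M-MDSC alone the gap between the populations was smaller in LD for 33, with a median of 3.79 on the log2 scale in Ctrl and 2.56 in LD. These genes were picked by the difference, which measures the change in that gap, so the narrowing is no separate result.

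Cd274, which encodes the T cell inhibitory ligand PD-L1 (chromosome 19, 29362107 to 29388095), read 207.5, 174.1 and 231.7 in M-MDSC Ctrl and 525.2, 313.3 and 328.1 in M-MDSC LD. In PMN-MDSC it read 1448.5, 1577.7 and 1419.0 in Ctrl and 999.5, 1223.8 and 1078.4 in LD. Neither pair overlapped, and they went opposite ways, but the PMN-MDSC change of -0.43 ± 0.17 was not called (limma adjusted p = 0.106). The difference was 1.33 ± 0.25 (limma adjusted p = 0.0132), and M-MDSC held 13.8% of the PMN-MDSC level in Ctrl and 35.3% in LD. The M-MDSC rise itself was lost when M-MDSC Ctrl replicate 2 was left out (limma adjusted p = 0.0507).

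Irg1, the itaconate-producing enzyme now named Acod1, rose 6.69-fold in M-MDSC, from 5.8, 3.8 and 9.5 to 54.3, 55.2 and 32.5, against 1039.0 ± 226.6 and 1114.9 ± 270.8 in PMN-MDSC (difference 2.65 ± 0.44, limma adjusted p = 0.00826). Even after that rise M-MDSC held 4.24% of the PMN-MDSC level. Igf2r, the lysosomal mannose-6-phosphate receptor, rose 3.8-fold (103.1 ± 3.4 to 413.5 ± 161.2; difference 2.05 ± 0.3, limma adjusted p = 0.00513). Phf15, a chromatin protein now named Jade2, rose 4.51-fold (22 ± 3.8 to 105.4 ± 32.5; difference 2.71 ± 0.34, limma adjusted p = 0.00225), and Ston2, an endocytic adaptor, 4.17-fold (28.6 ± 9.5 to 117.9 ± 8.0; difference 1.99 ± 0.37, limma adjusted p = 0.0132).

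Other M-MDSC rises began at levels nearer those of PMN-MDSC. Hsp90aa1, an inducible HSP90 chaperone, read 1382.0, 1150.2 and 1366.5 in M-MDSC Ctrl and 2252.9, 2205.1 and 2148.6 in M-MDSC LD, against 1193.9 ± 78.6 and 1155.8 ± 164.4 in PMN-MDSC. Its difference was 0.82 ± 0.15 (limma adjusted p = 0.0136). Lair1, an inhibitory receptor for collagen, rose from 932.7 ± 94.8 to 1650.5 ± 212.9 and read 1001.5 ± 147.5 and 778.7 ± 147.7 in PMN-MDSC (difference 1.19 ± 0.22, limma adjusted p = 0.012). H2-Q4, another MHC class I gene with close copies and so with uncertain reads, rose from 658.8 ± 47.3 to 1238.0 ± 154.2 (difference 0.99 ± 0.16, limma adjusted p = 0.00826). Slc16a3, the lactate exporter MCT4, rose from 704.3 ± 33.4 to 1089.2 ± 48.6 and read 4981.7 ± 122.0 and 4667.4 ± 337.9 in PMN-MDSC (difference 0.72 ± 0.12, limma adjusted p = 0.008).

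MHC class II genes, which present antigen to helper T cells, differed less securely. H2-Eb1 (chromosome 17, 34305867 to 34316674) read 596.0, 435.4 and 672.6 in M-MDSC Ctrl and 1853.8, 1761.9 and 1643.2 in M-MDSC LD, against 174.5 ± 76.7 and 129.1 ± 37.6 in PMN-MDSC. The M-MDSC groups stood well apart, but the difference of 2.01 ± 0.43 (limma adjusted p = 0.0293) was lost in 7 left-out fits (up to 0.0848). Cd74, the invariant chain, H2-Aa and H2-Ab1 had differences of 1.35 ± 0.34, 1.51 ± 0.4 and 1.49 ± 0.5 that did not pass (limma adjusted p = 0.0557, 0.0652 and 0.13). Macrophage markers moved in the same libraries: the summed level of 12 of them went from between 1165.5 and 1390.7 in M-MDSC Ctrl to between 2475.3 and 3012.6 in M-MDSC LD, and from between 491.7 and 647.8 to between 478.2 and 831.8 in PMN-MDSC. Axl, an efferocytosis receptor among them, rose from 433.1 ± 53.4 to 1401.9 ± 130.5 in M-MDSC (difference 1.92 ± 0.47, limma adjusted p = 0.0482, lost in 10 left-out fits with up to 0.116). The part of macrophages in the MHC class II values was not tested.

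Several larger M-MDSC rises varied with the library left out. Vegfa, the angiogenic growth factor, read 7.1, 2.9 and 15.7 in M-MDSC Ctrl and 183.3, 27.2 and 74.9 in M-MDSC LD, against 796.7 ± 106.8 and 565.1 ± 82.3 in PMN-MDSC. Its difference of 3.68 ± 0.79 (limma adjusted p = 0.0293) was 3.01 with M-MDSC LD replicate 1 left out and 4.37 with replicate 2 left out, and was lost in 8 left-out fits (up to 0.0743). Inhba, the activin A subunit, read 4.5, 1.0 and 8.4 in M-MDSC Ctrl and 115.2, 51.8 and 54.2 in LD (difference 3.47 ± 0.73, limma adjusted p = 0.0264). It moved to 2.85 without M-MDSC Ctrl replicate 2 and was lost in 3 left-out fits (up to 0.0708). Cxadr, an adhesion molecule of cell junctions, had levels near 0 in M-MDSC Ctrl and 19.6, 10.2 and 2.0 in M-MDSC LD, while PMN-MDSC read 322.8 ± 23.5 in Ctrl and 158.4 ± 19.5 in LD. Its fitted difference of 3.95 ± 0.81 (limma adjusted p = 0.0225) depends on the 1 added to each count. It moved to 3.34 and 4.74 without M-MDSC LD replicates 1 and 3 and was lost in 6 left-out fits (up to 0.064).

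Further M-MDSC rises with called differences were Cd300e, an activating receptor of non-classical monocytes (2.79 ± 0.59, limma adjusted p = 0.0281, lost in 6 left-out fits with up to 0.0726), and Egr1, an early growth response factor (1.68 ± 0.39, 0.0378, lost in 9 with up to 0.108). Il1rn, the IL-1 receptor antagonist, rose from 118.3 ± 6.9 to 269.8 ± 28.1 in M-MDSC and read 4253.9 ± 811.7 and 4945.3 ± 493.0 in PMN-MDSC (0.95 ± 0.19, limma adjusted p = 0.0193). It was lost without M-MDSC Ctrl replicate 1 or PMN-MDSC Ctrl replicate 2 (0.0549 at most). Cebpb, a transcription factor of emergency granulopoiesis, rose from 5039.6 ± 319.0 to 6721.9 ± 706.0 in M-MDSC and read 6710.4 ± 312.5 and 5932.7 ± 572.6 in PMN-MDSC (0.59 ± 0.14, limma adjusted p = 0.0433, lost in 9 left-out fits with up to 0.101).

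Falls in M-MDSC alone were few. Thbs1, thrombospondin 1 (chromosome 2, 118111876 to 118127133), read 626.5, 1299.4 and 873.4 in M-MDSC Ctrl and 166.6, 184.3 and 216.7 in M-MDSC LD. In PMN-MDSC it read 1082.3, 1410.7 and 1751.0 in Ctrl and 814.2, 1603.3 and 2999.5 in LD, a wide overlap. The difference was -2.42 ± 0.51 (limma adjusted p = 0.0266), lost in 5 left-out fits (up to 0.0754). Amica1, the junctional adhesion molecule-like protein JAML, fell from 252.5 ± 24.3 to 124.8 ± 8.4 in M-MDSC against 6361.5 ± 416.6 and 5890.7 ± 1224.1 in PMN-MDSC (difference -0.88 ± 0.19, limma adjusted p = 0.0304, lost in 9 with up to 0.0768). Prkar2b and Snx27 were the other 2 falls.

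Among secondary and tertiary granule genes the difference was called in either direction. Ltf, lactoferrin (chromosome 9, 111019292 to 111042766), read 515.6, 686.1 and 656.3 in M-MDSC Ctrl and 15333.0, 3294.5 and 7618.2 in M-MDSC LD. In PMN-MDSC it read 40381.9, 45743.0 and 49559.1 in Ctrl and 121125.2, 89873.8 and 123470.8 in LD. All LD libraries lay above all Ctrl libraries of their population, with rises of 11.8-fold and 2.45-fold and a difference of 2.27 ± 0.52 (limma adjusted p = 0.0356, lost in 9 left-out fits with up to 0.0902). M-MDSC went from 1.37% to 7.85% of the PMN-MDSC level. Itgb2l, an integrin chain of neutrophil precursors (2.15 ± 0.52, limma adjusted p = 0.0474, lost in 8 with up to 0.121), and Camp, cathelicidin (2.42 ± 0.52, 0.0293, lost in 8 with up to 0.0774), had differences of the same size, the latter with a PMN-MDSC change of 1.1 ± 0.37 that was not called (limma adjusted p = 0.0561). Ngp and Lcn2, also secondary granule proteins, rose in both populations with differences of 1.93 ± 0.53 and 1.41 ± 0.5 that did not pass (limma adjusted p = 0.0735 and 0.153).

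Of 20 secondary and tertiary granule genes, 8 rose and 1 fell in M-MDSC and 13 rose in PMN-MDSC. The difference passed for 3 toward M-MDSC (Ltf, Camp, Itgb2l) and for 3 toward PMN-MDSC (Mmp8, Cybb, Anxa1), and 14 did not pass. Of all genes, 1.18% passed toward M-MDSC and 1.07% toward PMN-MDSC. M-MDSC LD replicate 1 held the most Ltf, Ngp, Camp and Lcn2 of its group and also the most Mki67, and primary granule genes summed to 16943.4 there against 9530.4 and 10279.1 in the other M-MDSC LD libraries. The part of precursor cells in these values was not tested. St3gal5, the ganglioside GM3 synthase, was the one gene called upward in both populations whose difference held in all 12 left-out fits. It rose from 138.8 ± 15.7 to 511.7 ± 111.2 in M-MDSC and from 2265.9 ± 255.6 to 3551.7 ± 356.9 in PMN-MDSC (difference 1.21 ± 0.21, limma adjusted p = 0.00947). Fmnl3, a formin that nucleates actin, completed the 4 (1.01 ± 0.23, limma adjusted p = 0.0342, lost in 8 with up to 0.085). Of the 5 genes with no called change in either population (among them Chd7, Prdm15, Mgat4a and Ccl3), 0 passed in all left-out fits, and the chemokine Ccl3 had a difference of 2.9 ± 0.71 (limma adjusted p = 0.0491, lost in 10 with up to 0.12).

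Across 27 gene lists with 538 tested members, called differences made up 4 of 11 LXR targets, against 2.25% of all genes. Several lists named below held 0. At a share of 2.25%, 0 in a list of 8 to 25 tested genes is no result about that list. Cell division genes showed the widest separation of medians, 2.33 in M-MDSC and 0.34 in PMN-MDSC, and all 25 estimates of the difference were positive, with a median of 1.99. Over all genes 53.4% of the differences were positive. In M-MDSC 17 of the 25 rose, against 2.54% of all genes. In PMN-MDSC limma, edgeR and DESeq2 called 0 of the 25, with 1 at an unadjusted p under 0.05. For the difference itself, 19 of the 25 were upward at an unadjusted p under 0.05, and DESeq2 called 4 and edgeR 1. Over all 11122 genes, 2000 had an unadjusted limma p under 0.05 for the difference in either direction, and DESeq2 called 699 and edgeR 290. By limma the difference passed for 1 (Prc1, a spindle midzone protein, 2.6 ± 0.64, limma adjusted p = 0.0487, lost in 10 left-out fits with up to 0.119). Mki67 read 954.6, 775.1 and 774.7 in M-MDSC Ctrl and 8133.0, 2434.4 and 3200.8 in LD, and in PMN-MDSC 1688.3, 2097.1 and 1901.1 against 6242.0, 1260.5 and 2024.9. Its difference of 1.85 ± 0.66 did not pass (limma adjusted p = 0.157). For DNA replication (25 tested), p53 targets (14), primary granules (8), progenitor genes (11), mature neutrophil genes (24), interferon gamma-inducible genes (18), ribosome biogenesis (24) and the unfolded protein response (20) limma and edgeR called 0 differences. At an unadjusted p under 0.05 these lists had 3, 4, 2, 4, 9, 6, 2 and 7 in the order DNA replication, p53 targets, primary granules, progenitor, mature neutrophil, interferon gamma, ribosome biogenesis and unfolded protein response, and DESeq2 called 1, 2, 0, 2, 5, 3, 0 and 4. The medians of the difference in these lists ran from -0.22 (p53 targets) to 1.12 (progenitor genes).

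For type I interferon-stimulated genes and oxidative phosphorylation, called differences are given beside the 2.25% called over all genes. Of 34 type I interferon-stimulated genes, 9 rose in M-MDSC and 15 did so in PMN-MDSC, against 2.54% and 7.17% of all genes. The difference passed for Oasl1 toward M-MDSC (0.87 ± 0.19, limma adjusted p = 0.0289, lost in 6 left-out fits with up to 0.0695) and for Eif2ak2, the kinase PKR, toward PMN-MDSC (-0.74 ± 0.18, 0.0482, lost in 10 with up to 0.119). Ifitm3 and Ifitm6, interferon-inducible membrane proteins outside that list, rose in PMN-MDSC by 1.06 ± 0.14 and 1.18 ± 0.15 (differences -0.97 and -0.95, limma adjusted p = 0.0213 and 0.0352, lost in 4 and 7 with up to 0.0606 and 0.0947). Of 28 oxidative phosphorylation subunits, 24 had estimates toward PMN-MDSC, and 1 passed (Uqcrb of complex III, -1.17 ± 0.23, limma adjusted p = 0.0183, lost in 3 with up to 0.0558). Over all genes 53.4% of the estimates were toward M-MDSC. The complement component C3 rose from 10858.0 ± 1039.8 to 20401.7 ± 2514.7 in PMN-MDSC (difference -1.05 ± 0.21, limma adjusted p = 0.0189, lost in 3 with up to 0.0559).

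**Figure D5:**
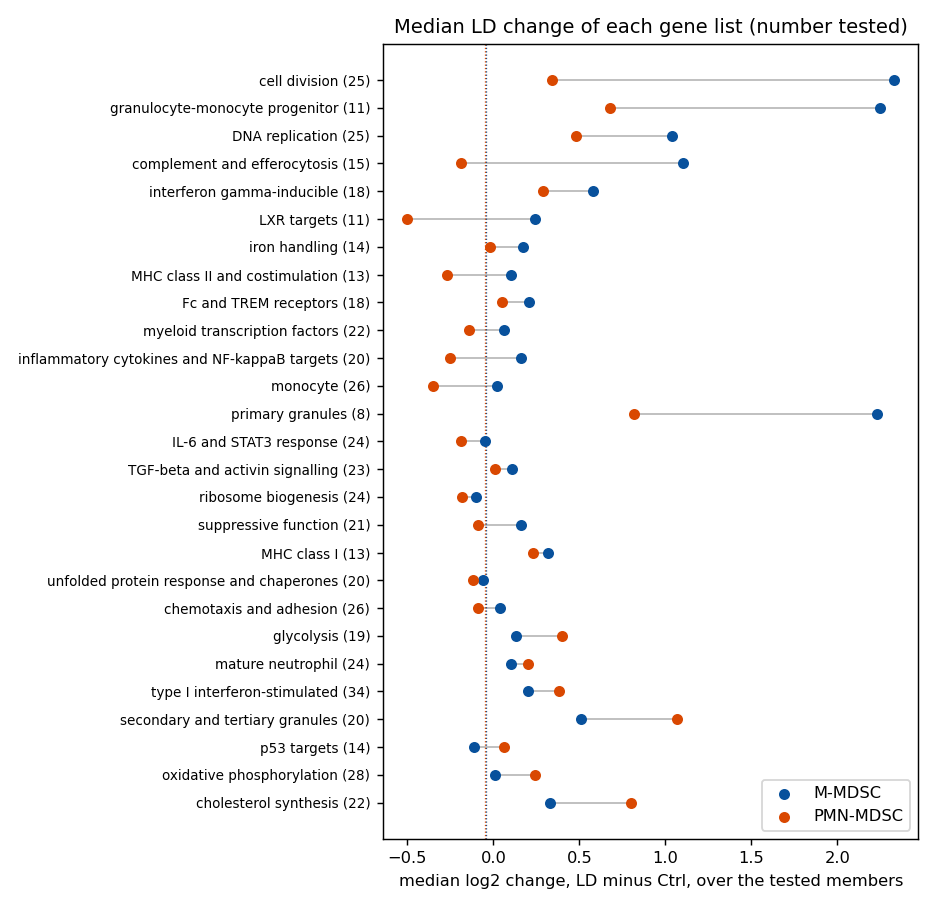
For each of 27 gene lists (number tested in brackets), the median log2 LD change over its tested members is plotted for M-MDSC (blue) and PMN-MDSC (orange), with dotted lines at the medians of all genes, -0.04 and -0.05. Lists are ordered by the median difference of their members, from cell division at the top (2.33 and 0.34) to cholesterol synthesis at the bottom (0.33 and 0.8).

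Of 21 tested genes of suppressive function, the difference passed for 3 toward M-MDSC (Cd274, Vegfa and Il1rn) and 1 toward PMN-MDSC (Cybb). Over all genes 2.25% passed. Other genes commonly used to describe MDSC function, given next, had no called difference. S100a8, a subunit of the inflammatory protein calprotectin, read 337.9, 478.4 and 434.2 in M-MDSC Ctrl and 9936.1, 1477.4 and 3309.1 in LD, and 36382.6 ± 1265.5 and 85207.0 ± 2071.2 in PMN-MDSC. LD libraries were above Ctrl in both populations, and the difference of 1.91 ± 0.61 did not pass (limma adjusted p = 0.116). S100a9, its partner, had a difference of 2.14 ± 0.59 (limma adjusted p = 0.0724). Il6ra, the IL-6 receptor, differed little between groups (4819.1 ± 50.5 and 4469.4 ± 388.0 in M-MDSC, 5881.7 ± 247.1 and 5529.9 ± 300.5 in PMN-MDSC), with a 95% interval of its difference from -0.28 to 0.23. Ccr2 (0.11 ± 0.39, limma adjusted p = 0.918) and Cxcr2, the neutrophil chemokine receptor (1.07 ± 0.69, limma adjusted p = 0.445), had wide intervals of -0.73 to 0.95 and -0.41 to 2.56. Arg1 and Nos2, enzymes of T cell suppression, were below the minimum level, at no more than 7.8 and 11.2 in any library.

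Most genes called in one population were not shown to respond differently from the other. Of the 283 rises in M-MDSC, 53 were also called up in PMN-MDSC and 7 down. Of the 223 others, the difference passed for 41 and did not for 182. For the 742 PMN-MDSC rises not called in M-MDSC it passed for 112 and did not for 630, and for 922 falls it passed for 74 and did not for 848. Over the 11122 genes the LD changes had the same sign in 60.8%, and Pearson's r across genes was 0.25, a description over genes that share libraries and are not independent. The smallest difference that was called was 0.47 in size.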

How the data were processed

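The authors deposited 1 table of normalized counts (a signal never below 0) for 23479 genes in 12 libraries. All values (100%) were whole multiples of the library's smallest value within 0.001 reads, so whole reads were recovered. Per the labels' protocols, libraries came from total RNA with ribosomal RNA depleted; strand is not stated. Per the submitters' processing notes, STAR 2.5.3a, HTSeq 0.6.1, DESeq2 and mm10 were used, with roles and order not given in the sources used here.

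For genes with a mean of at least 10, log2(normalized count + 1) was fitted by limma 3.58.1 (R 4.3.3) as 1 mean per group. Its trended empirical Bayes spread was shared by the 4 groups, leaving 8 residual degrees of freedom. The 1 added understates changes of low genes. On the recovered reads, edgeR 4.0.16 quasi-likelihood called 290 differences. The fit was tested on simulated data. The labels name no molecular identifiers, so read depth covers counting error only. Of the symbols, 23338 matched RefSeq symbols or synonyms, which gave coordinates.

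The comparison and the 27 gene lists were chosen with earlier results of these data known. Genes were named by rule: the 15 largest differences each way with a group mean of at least 100, up to 6 per class, up to 3 per list past the threshold (or 2 as values), with predicted genes and clone names left out, and in any case Cxcr2, Ccr2, Ly6c2, Mki67, Socs3, Arg1, Nos2, Cd274, Il6ra, S100a9 and S100a8. Of 90 genes so named, not all are described, and a few results are not reported here. A further 39 were chosen after their values were seen, among them Nucb2, Ap2a2, Cpd, Vim, Nrp1, Lgals3, Anxa1, Anxa5, Aldh2, Prdx6, Apoe, Csf1r, Prr5l, S1pr5, Zbtb16, Mef2d, Igf2r, Ston2, Hsp90aa1, Lair1, Dusp1, Dusp2, G6pdx, Tkt, Ifitm3, Ifitm6 and the genes given as values beside the sterol, MHC class II and granule results. Alternatives changed the pseudocount, minimum, scaling, weights, test tool, block and libraries.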

Additional observations from a re-analysis of the deposited data

Results flagged for a closer look

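The LD response differed between the populations by limma's test of the difference itself for 131 genes toward M-MDSC and for 119 toward PMN-MDSC. The estimates for those described above are gathered here on the log2 scale (M-MDSC minus PMN-MDSC), with no explanation weighed.

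Genes called in opposite directions had differences of -2.78 (Mmp8), -1.25 (Nucb2), -0.65 (Ap2a2), 0.84 (Cpd), 0.94 (AF251705), 1.26 (Jun), 1.37 (Card10), 1.52 (Itgax) and 2.30 (Eno3). Next in the same order came 2.57 (H2-Q5).

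Called in M-MDSC alone were -2.42 (Thbs1), -0.88 (Amica1), 0.59 (Cebpb), 0.72 (Slc16a3), 0.82 (Hsp90aa1), 0.87 (Oasl1), 0.95 (Il1rn), 0.99 (H2-Q4) and 1.19 (Lair1). Next in the same order came 1.33 (Cd274), 1.68 (Egr1), 1.92 (Axl), 1.99 (Ston2), 2.01 (H2-Eb1), 2.05 (Igf2r), 2.42 (Camp), 2.60 (Prc1) and 2.65 (Irg1). These were followed by 2.71 (Phf15), 2.79 (Cd300e), 3.47 (Inhba), 3.68 (Vegfa) and 3.95 (Cxadr).

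Called in PMN-MDSC alone were -4.42 (Cobll1), -2.33 (Sntb1), -2.15 (Acvrl1), -1.72 (Mgst1), -1.70 (Timp2), -1.61 (Capg), -1.51 (Ifrd1), -1.50 (Pdk3) and -1.49 (Plekhg1). Next in the same order came -1.44 (Ly6c2), -1.34 (Lyz2), -1.34 (S100a6), -1.26 (Nrp1), -1.19 (Anxa5), -1.17 (Uqcrb), -1.11 (Vim) and -1.06 (Sc4mol). These were followed by -1.05 (Cybb), -1.05 (C3), -1.04 (Srebf2), -1.03 (Lgals3), -0.97 (Ifitm3), -0.97 (Aldh2), -0.95 (Ifitm6), -0.88 (Prdx6) and -0.85 (Acvr1b). Then came -0.77 (Anxa1), -0.74 (Eif2ak2), -0.68 (Tkt), -0.63 (G6pdx), 0.59 (Abcg1), 0.61 (Csf1r), 0.63 (Mef2d), 0.66 (Slc2a1) and 0.76 (Zc3h12a). After them stood 0.81 (Il10ra), 0.89 (Zeb2), 0.92 (Mylip), 0.93 (Prr5l), 1.18 (Dusp1), 1.30 (Dusp2), 1.33 (Socs3) and 1.62 (Zbtb16). The order went on with 1.74 (Apoe), 1.94 (S1pr5), 2.57 (Slc12a2) and 3.83 (Abca1).

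Called upward in both populations were 1.01 (Fmnl3), 1.21 (St3gal5), 2.15 (Itgb2l) and 2.27 (Ltf).

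With neither change called, the difference was 2.90 (Ccl3).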

How the results depend on the processing

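The 250 differences kept their direction under every alternative that tested them. A mean of at least 50 left 239 of them tested, and H2-Eb2 fell below the minimum level and was not tested when M-MDSC LD replicate 1, M-MDSC LD replicate 2 or both LD libraries numbered 001 were left out. No named result was called in the opposite direction. A changed minimum level, robust empirical Bayes and the replicate blocks left each estimate as it was, so its sign was fixed in advance there. The number called was 239 and 298 with a pseudocount of 0.5 and 8, 125 with no minimum level, 264 with a mean of at least 50, 315 with TMM and 209 with upper-quartile scaling, 524 with sample weights, 231 with robust empirical Bayes, 290 with edgeR and 699 with DESeq2. The median difference over all genes was 0.039, against 0.018 with TMM, 0.05 with upper-quartile scaling and 0.083 with edgeR.

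Counts that moved by over 1.5 times were as follows. With no minimum level, 56 differences were toward M-MDSC and 69 toward PMN-MDSC, with 20 in M-MDSC alone, 96 in PMN-MDSC alone, 1 in the same direction and 1 in neither. With TMM, 180 were toward PMN-MDSC and 9 in neither, with a pseudocount of 8 there were 13 in neither, and robust empirical Bayes left 2 in the same direction. Sample weights gave 263 and 261 toward the populations, 646 rises and 330 falls in M-MDSC, and 22 opposite, 120 in M-MDSC alone, 338 in PMN-MDSC alone, 13 in the same direction and 31 in neither. DESeq2 gave 368 and 331, with 549 rises and 174 falls in M-MDSC, and 18, 136, 469, 21 and 55 in those classes. With edgeR, 10 genes were in the same direction and 10 in neither. Without both LD libraries numbered 001, counts were 422 and 345, with 100 falls in M-MDSC and 20, 136, 548, 17 and 46 in the classes. Fitting each population alone for its LD change, chosen after seeing the data, gave 11 in the same direction and 17 in neither. The cause of these shifts was not tested.

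With 1 library left out in turn, 48 to 459 genes were toward M-MDSC and 61 to 365 toward PMN-MDSC. In M-MDSC 167 to 433 rose and 20 to 115 fell, and in PMN-MDSC 464 to 991 rose and 425 to 1172 fell. The classes held 4 to 18 opposite, 20 to 171 in M-MDSC alone, 88 to 575 in PMN-MDSC alone, 1 to 20 in the same direction and 0 to 48 in neither.

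The labels do not say whether a replicate number marks a shared animal. Residuals of same-numbered M-MDSC and PMN-MDSC libraries correlated at -0.037, 0.054 and 0.135 in Ctrl and 0.208, 0.125 and 0.068 in LD. These values do not settle whether same-numbered libraries came from a shared animal, and the main fit used no pairs. In LD each M-MDSC library correlated best with its own number, and in Ctrl not each did. With a replicate block by number 213 differences were called, 76.4% of the 250 among them, with 3 in neither class. A block by presumed animal, where same-numbered M-MDSC and PMN-MDSC libraries of a treatment are paired, gave 14, of which 11 were toward M-MDSC, 3 toward PMN-MDSC and 5 shared with the 250. In the fit of the report no difference smaller than 0.47 was called.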
